A study of Mus musculus with 12 samples.

Results

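T-cell lymphomas driven by MYC in mice that had lost Dnmt3a in the blood lineage were compared with MYC lymphomas of control mice. The comparison was made up of the 9 tumor arrays of the series, 4 of Dnmt3a-deficient tumors and 5 of control tumors, out of 12 arrays in all. Every array measured total RNA of the thymus of FVB/N mice, taken at a terminal stage in both tumor groups, and the control tumors carry the genotype label wild type. The other 3 arrays were of wild-type thymocytes without tumor at 24 days of age, and are given as a reference. Genes were taken from the 20870 of 23858 probe sets that carry exactly 1 gene symbol, with the brightest probe set kept for a gene that had several, which left 19309 genes. The labels name neither the promoter or Cre that drives MYC or the deletion, nor an animal for each array, so p-values measure only the spread between these samples, which may be technical. All values are log2 expression, so a difference of 1 is a change of 2-fold.

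Dnmt3a and Dnmt3b are the enzymes that set new methyl groups on cytosines of CpG pairs, and Dnmt1 copies the marks when DNA is replicated. Methylation of a CpG-rich promoter usually goes with silence of its gene, while methylation within gene bodies is found in active genes. DNMT3A is often mutated in human T-cell leukemia and lymphoma, and its loss in blood stem cells favours their self-renewal over differentiation. MYC drives ribosome production, nucleotide synthesis and the cell cycle, and its deregulation is a common route to T-cell tumors of the thymus.

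The arrays of the control group were not alike. The 75th percentile of all log2 values was 8.50 to 8.60 on the deficient arrays, 8.55 on control tumor 1 and 8.51 on control tumor 2. The remaining controls had 8.25 to 8.30. Between the groups it averaged 8.54 ± 0.04 (SD, n = 4) and 8.37 ± 0.14 (SD, n = 5), with an exact two-sided permutation p of 0.0873. Over all genes, control tumors 1 and 2 also correlated more with the deficient tumors (mean Pearson r of 0.9718 and 0.9706) than with the other controls (0.9555 and 0.9509). The median SD of a gene was 0.278 among control tumors and 0.186 among deficient tumors. For called genes whose difference was more than 1.5 times smaller against control tumors 1 and 2 alone, that value is also given, since their upper quartiles lay with those of the deficient arrays. Neutrophil markers, such as granule proteins, had a mean log2 value of 7.45 in control tumor 3 and 7.43 in control tumor 4, while 7 tumors had 5.35 to 6.05. Adipocyte markers averaged 8.10 in control tumor 2, against 5.60 to 5.83 elsewhere among the tumors.

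In the deficient tumors 158 genes changed (limma adjusted p under 0.05), which is 0.818% of those tested: 114 were higher (0.59%) and 44 lower (0.228%). Among the called genes, 68 higher (0.352%) and 28 lower (0.145%) differed by at least 2-fold. The median difference was 1.12 for the genes called higher and -1.12 for those called lower, against -0.01 for all genes. With the dimmest 50% of genes left out, the median over the remaining genes was 0.128. All 4 deficient tumors lay beyond all 5 control tumors for 108 of the genes called higher and 38 of those called lower. Over all genes such a separation was seen upward for 733 (3.8%) and downward for 454 (2.35%), 1187 in all (6.15%). An unadjusted p under 0.05 was reached upward by 2433 genes (12.6%) and downward by 1464 (7.58%).

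**Figure D1:**
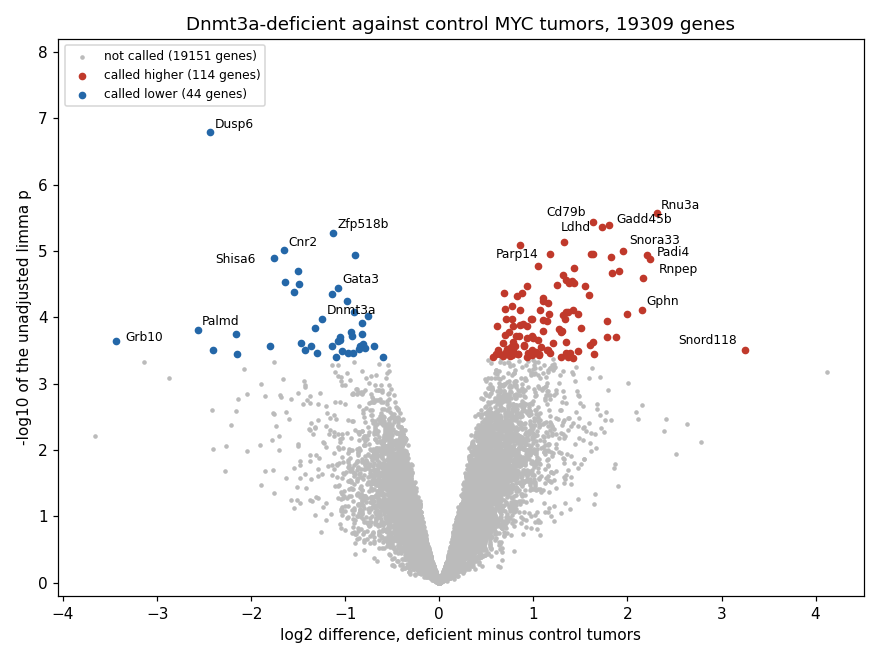
Each point is 1 of 19309 genes, with the log2 difference of deficient minus control tumors on the horizontal axis and -log10 of the unadjusted limma p on the vertical axis. The 114 genes called higher are red and the 44 called lower are blue, and Dusp6 has the smallest p.

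The number of calls depended on single arrays. It was 1012 without control tumor 1 and 1482 without control tumor 2, but 28 when control tumor 3 was left out and 36 when control tumor 4 was. Of the deficient tumors, leaving out the third gave 33, the fourth 16 and the first 102 calls, and without normal thymocytes 1, 2 or 3, which add only to the estimate of the spread, it was 51, 52 and 54. Without control tumor 5 or deficient tumor 2 it stayed near the main value, at 155 and 154. Of the 158 genes, 12 were called in each of the 12 fits that left out 1 array, among them Dusp6, Cnr2, Zfp518b, Gadd45b, Cd79b, Padi4, Ldhd, Rnu3a, Snora33 and Snora73a. With control tumors 3 and 4 left out together 6 genes were called, namely Dusp6, Palmd, H2-Eb1, Ldhd, Mctp2 and D17H6S56E-5.

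All 114 genes called higher and all 44 called lower kept their sign without control tumors 3 and 4, and against control tumors 1 and 2 alone. Against the latter pair the median difference was 0.93 for the higher and -1.02 for the lower genes, and 26 of the higher and 4 of the lower genes shrank by more than 1.5 times. Since the genes were called with these same arrays, the retained signs are a description.

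**Figure D2:**
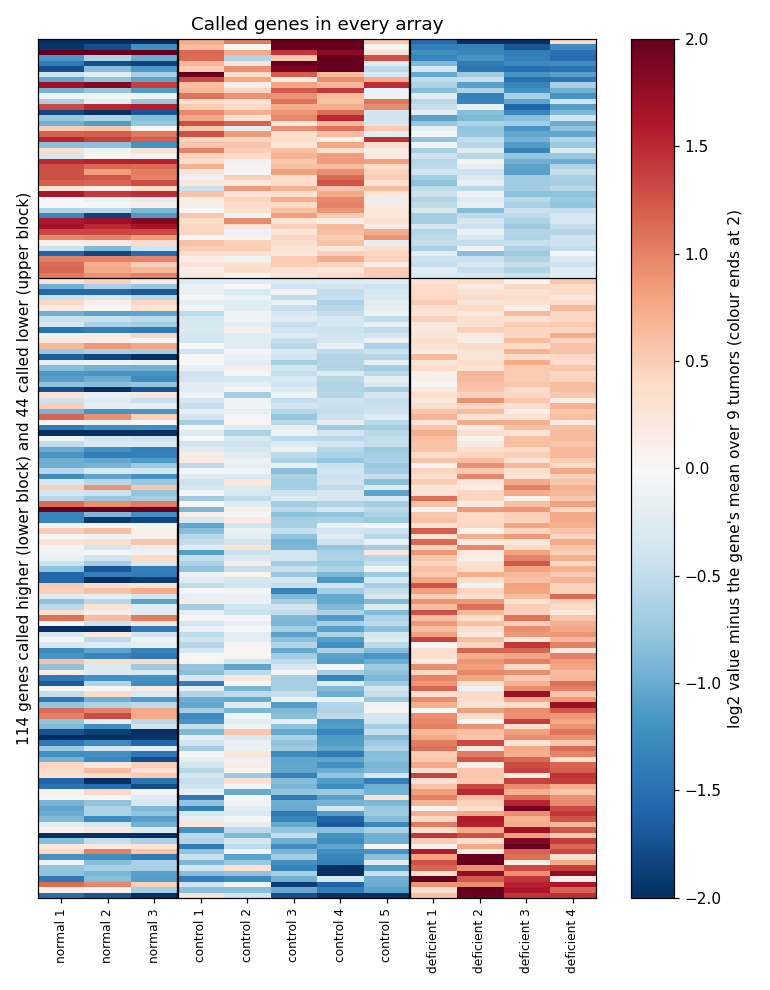
Rows are the 158 called genes ordered by difference, columns are the 12 arrays, and colour is the log2 value minus the gene's mean over the 9 tumors. The 4 deficient columns share 1 colour in most rows, and control tumors 1 and 2 are paler than control tumors 3 and 4 in much of the lower block.

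**Figure D3:**
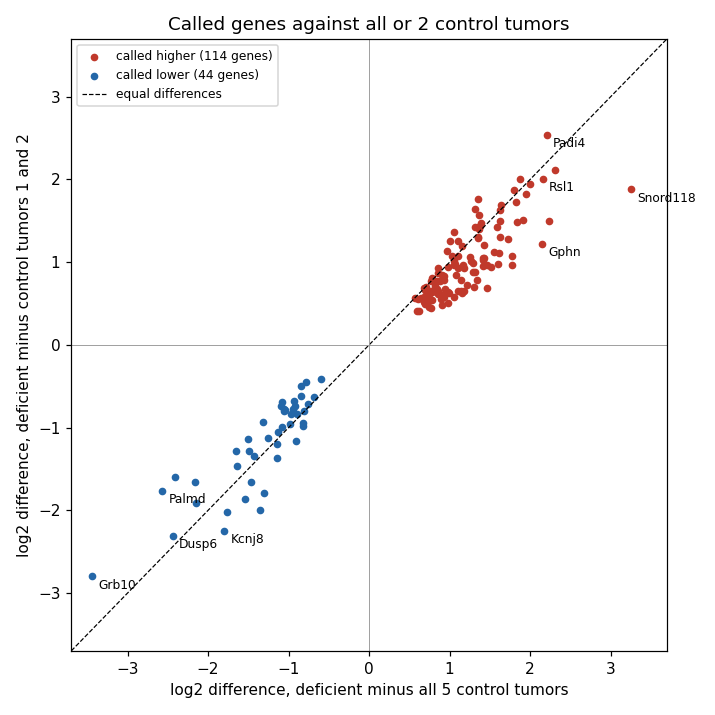
The log2 difference of each called gene against all 5 control tumors (horizontal axis) is plotted with the difference against control tumors 1 and 2 (vertical axis), with the line of equal differences dashed. All 158 points keep their sign, and Gphn and Snord118 lie well below the line.

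Dnmt3a itself was lower in every deficient tumor. Its log2 value was 7.33, 7.62, 7.19 and 7.53 in the deficient tumors and 8.58, 8.52, 8.48, 8.19 and 9.57 in the control tumors, with 9.63, 9.48 and 9.33 in normal thymocytes. The groups did not overlap, and control tumor 5 stood above the other controls at the level of normal thymocytes. The difference was -1.25 (SE 0.229, limma adjusted p = 0.0317), or 2.38-fold, and the exact two-sided permutation p of 0.00794 is the smallest that 4 against 5 arrays allow. Leaving out 1 array ended the call for normal thymocytes 1, 2 or 3, control tumor 3 and deficient tumors 1, 3 or 4, with differences of -1.17 to -1.30 and an adjusted p of up to 0.108. Signal remained in the deficient tumors, and the labels do not say where the probes lie relative to the deleted stretch. In such bulk tissue fewer cells of a type and less RNA per cell cannot be told apart.

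No other gene of the methylation machinery was called: of 25 tested members, 0 rose and 1, Dnmt3a, fell (all genes: 0.59% and 0.228%). The median difference of the list was 0.12, and -0.01 after a second quantile normalization. Dnmt3b, the sister enzyme, measured 7.21, 7.80, 7.53 and 7.20 in deficient tumors against 6.15, 6.80, 6.84, 7.0 and 7.21 in control tumors, a difference of 0.63 (limma adjusted p = 0.127) with overlapping groups. Dnmt1, the maintenance enzyme, differed by 0.25 (limma adjusted p = 0.311), and its values of 10.72 to 11.40 overlapped those of the control tumors at 10.70 to 10.88. Its sign turned to -0.03 when all arrays were scaled to a common median and interquartile range.

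Genes of the Gadd45 family, small stress-response proteins that have been linked to DNA demethylation, held 1 call. Gadd45b rose in all deficient tumors, with log2 values of 8.34, 8.73, 9.69 and 9.23 against 6.79, 7.47, 7.19, 7.16 and 7.36 in control tumors and 7.71 to 8.17 in normal thymocytes. The groups were separated by a wide gap, and the difference of 1.80 (SE 0.24, 3.49-fold, limma adjusted p = 0.0144) was called in all 12 fits without 1 array. Gadd45a measured 6.48 to 6.69 in deficient tumors and 6.92 to 8.03 in control tumors, a difference of -0.82 that missed the threshold (limma adjusted p = 0.0607), without overlap. Gadd45g, at 5.60 to 7.76 against 9.34, 9.66, 8.78, 9.68 and 5.65, overlapped between the groups through control tumor 5 alone. Its difference of -1.85 was not called (limma adjusted p = 0.174), and was -2.73 (limma adjusted p = 0.0347) against control tumors 1 and 2. Of 15 genes of the TET and Gadd45 list, 1 rose and 0 fell (all genes: 0.59% and 0.228%).

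Among genes that fell, Dusp6 had the smallest p of the whole comparison. Dusp6 is a phosphatase that removes the activating phosphates of ERK kinases and is itself induced by ERK activity. It measured 6.83, 6.76, 6.67 and 6.56 in deficient tumors, 9.21, 8.82, 9.49, 9.87 and 8.33 in control tumors, and 10.12, 10.25 and 10.09 in normal thymocytes. Every deficient tumor thus lay more than 1 log2 unit below every control tumor. The difference was -2.44 (SE 0.244, 5.43-fold, limma adjusted p = 0.00312), and it was called in each fit without 1 array, without control tumors 3 and 4 (-2.08), and as the 1 called gene when the tumor arrays were fitted alone.

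Of 3 other genes linked to ERK, 1 was called. Etv5, an ETS transcription factor, measured 7.27, 7.70, 7.09 and 7.01 in deficient tumors against 8.78, 8.31, 10.01, 10.08 and 7.99 (difference -1.76, limma adjusted p = 0.0539), without overlap. Dusp4, a second phosphatase of this type, differed by -1.43 (limma adjusted p = 0.0726), with overlap. Elk3, an ETS factor that ERK phosphorylates, fell from 8.27 to 9.32 in control tumors to 7.26 to 7.90 in deficient tumors (-1.06, limma adjusted p = 0.0439), and not without deficient tumor 4 (adjusted p = 0.139). Of 36 tested genes of ERK feedback and early receptor response, 0 rose and 1, Dusp6, fell (all genes: 0.59% and 0.228%). Their median was -0.29, and -0.08 against control tumors 1 and 2. The difference was positive at 15 of the 36, and 2 were separated downward and 0 upward (all genes: 2.35% and 3.8%). Elk3 is not on this list. Etv5, Dusp4 and Elk3 were picked after their values were seen.

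Of 41 transcription factors of the T lineage 0 rose and 1 fell, with a median of 0.02 that was -0.08 after a second quantile normalization and -0.39 against control tumors 1 and 2. Of 45 genes of T-cell receptor signaling 0 rose and 1 fell, with a median of -0.13 (all genes: 0.59% higher and 0.228% lower). Gata3, a transcription factor needed for T-lineage commitment and CD4 cells, measured 8.81, 9.17, 8.29 and 8.75 against 10.05, 9.43, 9.95, 9.98 and 9.76, with 10.47 to 10.65 in normal thymocytes. The tumor groups did not overlap, and Gata3 fell by 1.08 (SE 0.177, limma adjusted p = 0.0197, 0.0744 without deficient tumor 4). Cd27, a costimulatory receptor, fell by 1.30 (limma adjusted p = 0.0477), although deficient tumor 1 at 8.89 was above control tumor 5 at 8.73. Tespa1, a component of T-cell receptor signaling in thymocytes, fell by 1.14 (limma adjusted p = 0.0456) without overlap. Lef1, a partner of beta-catenin in early thymocytes, measured 9.64, 9.36, 7.43 and 8.80 against 9.92 to 10.57 and was not called (limma adjusted p = 0.075), though the groups did not overlap. In the opposite direction between the tumor groups, Notch1, the receptor that commits progenitors to the T lineage, rose by 0.98 (limma adjusted p = 0.0477). Its values of 8.64 to 9.45 overlapped the highest control at 8.70, and both tumor groups lay below the 10.58 to 10.6 of normal thymocytes. Without 1 array the highest adjusted p of Cd27, Tespa1 and Notch1 was 0.168, 0.119 and 0.163.

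Cd3e, Cd4, Cd8a and Cd2, genes of the T-cell surface, overlapped between the groups. Cd3e, part of the T-cell receptor complex, was 11.37 to 11.62 in deficient and 10.35 to 11.68 in control tumors (0.52, limma adjusted p = 0.255), and -0.09 against control tumors 1 and 2. Cd4 differed by -0.82 (limma adjusted p = 0.224). Cd8a differed by 0.38 (limma adjusted p = 0.801) and ranged from 8.23 to 11.37 in deficient and from 7.60 to 11.40 in control tumors, and its sign turned without control tumor 5 (-0.25). Cd2, an adhesion receptor, was 9.48, 9.73, 7.04 and 7.77 against 9.60 to 10.82 (limma adjusted p = 0.0775). Cd3e was thus above 10 in all 9 tumors, which carry the label of T-cell tumors. Of 19 genes that identify the T lineage 0 rose and 2 fell, Gata3 and Cd27 (all genes: 0.59% and 0.228%), and the median of the 19 was -0.36, or -0.21 against control tumors 1 and 2.

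Myc itself was not called, at 6.16 to 6.78 in deficient and 5.99 to 7.49 in control tumors (-0.24, limma adjusted p = 0.619), and its sign turned to 0.12 without control tumors 3 and 4. Both tumor groups lay below the 9.43 to 9.86 of normal thymocytes, and the labels do not say whether the probes read the introduced MYC. Of 21 genes of the MYC and MAX network none was called (all genes: 0.818%), and at 14 of them the difference was positive. Of 45 MYC targets of ribosome production 1 rose, Nop16, and 0 fell (all genes: 0.59% and 0.228%). Nop16, a nucleolar protein, measured 10.87, 11.14, 11.10 and 11.11 against 10.15 to 10.76 (0.70, limma adjusted p = 0.0414, 0.136 without deficient tumor 4).

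The largest fall by size was that of Grb10, an adaptor protein that restrains insulin and growth factor receptors and is imprinted, so that in most tissues it is read from the maternal copy alone. Its log2 values were 7.51, 5.67, 5.96 and 9.43 in deficient tumors, 9.80, 10.09, 11.51, 11.91 and 9.59 in control tumors, and 5.40 to 5.52 in normal thymocytes. Deficient tumor 4 came within a small gap of the lowest control, while deficient tumors 2 and 3 were near normal thymocytes. Grb10 fell by 3.44 (SE 0.684, 10.8-fold, limma adjusted p = 0.0441), but not without deficient tumor 3 (adjusted p = 0.14). Of 38 imprinted genes Grb10 alone was called (all genes: 0.818%), and the median of the list was -0.12.

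Further genes that fell had lower values in normal thymocytes than in nearly all control tumors. Palmd, of the paralemmin family, measured 5.13 to 5.60 in deficient tumors, 6.89 to 9.49 in control tumors and 4.91 to 5.63 in normal thymocytes. Its fall of 2.57 (limma adjusted p = 0.038) was -1.67 (limma adjusted p = 0.0275) without control tumors 3 and 4. Fbn2, fibrillin 2 of extracellular microfibrils, fell by 2.41 (limma adjusted p = 0.0477), with -1.60 against control tumors 1 and 2, and Kcnj8, a subunit of ATP-sensitive potassium channels, by 1.80 (limma adjusted p = 0.0456). Shisa6, an auxiliary protein of glutamate receptors in neurons, measured 4.80 to 5.85 against 6.47 to 7.63 and fell by 1.76 (limma adjusted p = 0.0144). Mb21d2 fell by 1.64 and Dennd3, an activator of a Rab GTPase, by 1.14 (limma adjusted p = 0.0193 and 0.0217), and Sytl2, a Rab27 effector in vesicle transport, by 1.36 (limma adjusted p = 0.0456). All 7 genes separated the tumor groups without overlap. Without deficient tumor 3 or 4 their adjusted p was up to 0.156, above the threshold for each of them.

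The remaining falls named here were of receptors, enzymes and a transporter. Cnr2, the cannabinoid receptor of immune cells, measured 5.79, 5.34, 5.10 and 5.76 in deficient tumors against 7.01, 6.54, 7.21, 7.08 and 7.89 in control tumors and 7.79 to 8.26 in normal thymocytes. It fell by 1.65 (SE 0.238, limma adjusted p = 0.0144) and was called in all 12 fits without 1 array. St6gal1, which adds sialic acid to glycoproteins, fell by 1.49 (limma adjusted p = 0.0193) and Ctse, the protease cathepsin E, by 1.54 (limma adjusted p = 0.0217). Cflar, an inhibitor of caspase-8 activation, measured 6.19 to 6.89 against 7.23 to 8.2 and fell by 1.08 (limma adjusted p = 0.0443), with -0.69 against control tumors 1 and 2. It was the 1 called member of 37 genes of the BCL2 family and cell death (all genes: 0.818%). Slc2a3, a glucose transporter, fell by 0.94 (limma adjusted p = 0.0393). Zfp518b, a zinc finger protein, fell by 1.13 (limma adjusted p = 0.0144) in all 12 fits, and Lyplal1, a lysophospholipase-like enzyme, by 1.5 (limma adjusted p = 0.0178). None of St6gal1, Ctse, Cflar, Slc2a3 and Lyplal1 was called in every fit without 1 array, with an adjusted p of up to 0.139.

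**Figure D4:**
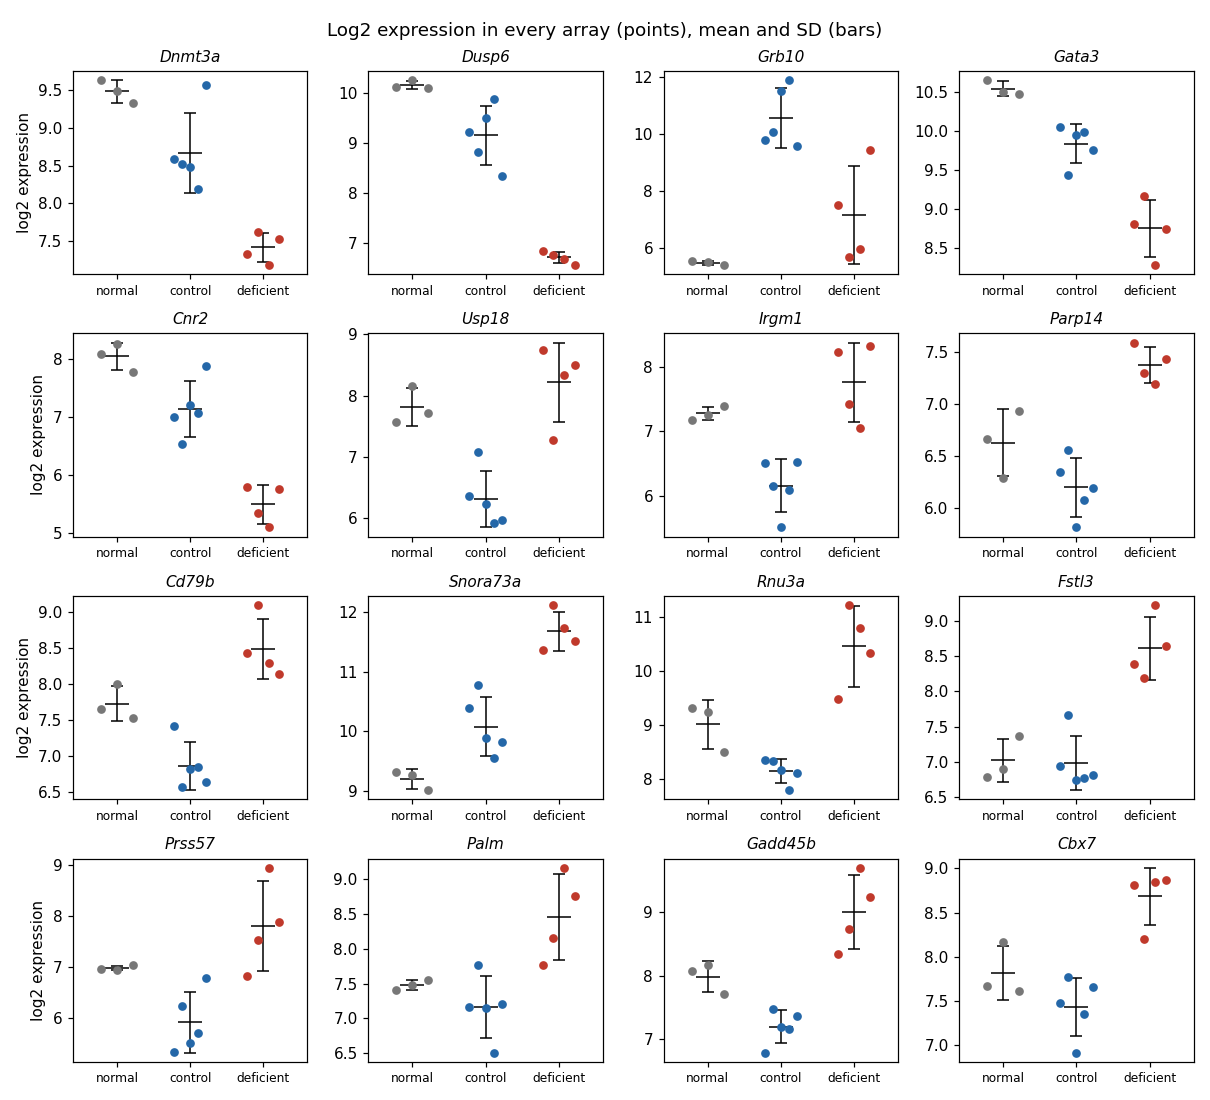
Log2 expression of 16 called genes in every array, with normal thymocytes in gray, control tumors in blue and deficient tumors in red; the bars are the mean and SD of each group. Dusp6 and Cnr2 fell in all deficient tumors without overlap, while Palm overlaps between the tumor groups.

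Interferon-stimulated genes had the largest share of genes separated upward among the 42 gene lists. They are switched on by interferon or by nucleic acids sensed in the cytosol, through STAT and IRF factors that bind an element in their promoters. Of 56 tested members, 8 rose and 0 fell (all genes: 0.59% higher and 0.228% lower), 20 had all deficient above all control tumors (all genes: 3.8%) and 0 the reverse. The median difference was 0.56, against -0.01 over all genes. It was 0.42 against control tumors 1 and 2 and 0.51 after a second quantile normalization. Over the list, mean log2 values were 7.30, 7.17, 7.08 and 7.27 in deficient tumors and 6.67, 6.82, 6.57, 6.57 and 6.52 in control tumors. No control tumor reached a deficient one, and normal thymocytes were at 7.26 to 7.42.

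The promoters of 3 members that rose are shown since they hold the binding letters of this element. Each is the 250 bases before the gene start in RefSeq (build GRCm38.p6), written in the direction of transcription, and the capitals mark GAAA, any 2 bases and GAAA again, on either strand. The regions are chr11:48871421-48871670 for Irgm1, chr12:26456453-26456702 for Rsad2 and chr11:83020811-83021060 for Slfn8, all on the minus strand.
Irgm1: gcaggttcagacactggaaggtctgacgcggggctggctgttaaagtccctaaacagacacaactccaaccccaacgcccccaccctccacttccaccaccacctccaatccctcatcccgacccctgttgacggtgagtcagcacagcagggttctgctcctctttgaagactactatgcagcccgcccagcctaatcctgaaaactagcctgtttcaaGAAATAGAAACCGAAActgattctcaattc
Rsad2: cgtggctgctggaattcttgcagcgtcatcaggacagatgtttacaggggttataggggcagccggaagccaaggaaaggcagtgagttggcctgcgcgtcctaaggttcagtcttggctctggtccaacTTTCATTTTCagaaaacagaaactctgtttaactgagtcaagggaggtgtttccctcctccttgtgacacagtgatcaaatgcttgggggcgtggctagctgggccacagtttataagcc
Slfn8: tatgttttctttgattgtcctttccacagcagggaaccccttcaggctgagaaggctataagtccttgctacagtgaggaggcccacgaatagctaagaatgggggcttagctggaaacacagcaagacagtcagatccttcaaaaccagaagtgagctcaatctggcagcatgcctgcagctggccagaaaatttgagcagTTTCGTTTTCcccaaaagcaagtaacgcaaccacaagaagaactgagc
Irgm1 holds 2 overlapping matches near the start, Rsad2 has 1 match that begins 120 bases before it and Slfn8 1 that begins 48 bases before it. The letters occurred in 2.94% of 15151 promoters of tested genes, in 15 of 42 promoters of interferon-stimulated genes (35.7%) and in 3 of the 4 promoters of called members. Of the 8 called members only these 4 had a promoter sequence to count, and Usp18, Parp14, Oas2 and Dhx58 had none. In the 83 promoters of all genes called higher they occurred 5 times (6.02%), and in the 31 of genes called lower 0 times. A match is a description of letters and shows no binding.

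Usp18, which removes the ubiquitin-like ISG15 from proteins and damps interferon receptor signaling, was the member with the largest rise. It measured 8.75, 7.28, 8.34 and 8.50 in deficient tumors against 6.35, 7.07, 6.23, 5.92 and 5.97 in control tumors, without overlap. The difference was 1.91 (SE 0.296, 3.75-fold, limma adjusted p = 0.0178). Irgm1, an immunity-related GTPase, measured 8.22, 7.43, 7.06 and 8.32 against 6.52, 6.15, 5.52, 6.09 and 6.53, again without overlap (1.59, limma adjusted p = 0.0221). Parp14, an ADP-ribosyltransferase, measured 7.59, 7.30, 7.19 and 7.43 against 6.34, 6.56, 5.81, 6.07 and 6.19 (1.18, limma adjusted p = 0.0144). Slfn8, of the Schlafen family, rose by 1.27 (limma adjusted p = 0.0376).

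Cmpk2, a mitochondrial nucleotide kinase, rose by 1.07 (limma adjusted p = 0.0294), and Rsad2, the antiviral enzyme viperin whose gene is its neighbour on chromosome 12, by 0.86 (limma adjusted p = 0.0353). Oas2, which makes the second messenger that activates RNase L, rose by 1.03 and Dhx58, a cytosolic RNA sensor, by 0.84 (limma adjusted p = 0.0477 for both). Rtp4, at 7.16, 5.75, 5.98 and 6.51 against 4.79 to 5.58, separated the groups and was not called (1.23, limma adjusted p = 0.0582). Rsad2, Dhx58 and Rtp4 were picked after their values were seen. Without deficient tumor 4 the 8 calls were lost, at an adjusted p of 0.0525 to 0.168. Marker genes of macrophages and monocytes, which respond to interferon, had a median difference of 0.09 with 0 of 22 called (all genes: 0.818%). Their mean levels were 6.81 to 7.51 in deficient and 6.12 to 7.79 in control tumors.

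Genes of the interferon-inducible p200 family, which bind DNA, went both ways. Ifi203 measured 8.88, 9.88, 7.75 and 8.33 in deficient tumors against 6.69, 6.84, 6.37, 6.24 and 7.37, a rise of 2.00 (limma adjusted p = 0.0303), and Ifi207, its neighbour on chromosome 1, rose by 1.29 (limma adjusted p = 0.0393). Aim2, the DNA sensor of the inflammasome, fell by 0.92 (limma adjusted p = 0.0477) from 7.37 to 8.27 in control tumors to 6.79 to 7.10 in deficient tumors. Of 8 tested members 2 rose and 1 fell (all genes: 0.59% and 0.228%), and 2 were separated upward and 2 downward (all genes: 3.8% and 2.35%). Of the 3 called, none was called in every fit without 1 array (adjusted p of up to 0.14). Members of this family are similar in sequence, and the array may not separate them.

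Genes of antigen presentation and of B cells each had 1 called member. Of 28 genes of MHC and peptide loading 1 rose and 0 fell (all genes: 0.59% and 0.228%). Separated upward were 4 of the 28 and downward 0 (all genes: 3.8% and 2.35%). The median of the 28 was 0.11, or -0.01 after a second quantile normalization. H2-Eb1, the beta chain of an MHC class II molecule, measured 8.41, 8.31, 7.86 and 8.28 against 6.71, 6.43, 7.15, 7.44 and 6.77, without overlap. It rose by 1.31 (SE 0.205, limma adjusted p = 0.0184) and by 1.57 (limma adjusted p = 0.0192) without control tumors 3 and 4. Cd79b, a signaling chain of the B-cell receptor, measured 8.43, 9.10, 8.30 and 8.15 against 7.42, 6.58, 6.82, 6.85 and 6.65, and rose by 1.63 (SE 0.215, limma adjusted p = 0.0144) in all 12 fits. Of 18 B-cell markers Cd79b alone was called (all genes: 0.818%). The median of these markers was -0.06 and their mean 5.73 to 6.06 in deficient and 5.63 to 6.14 in control tumors. Of 20 dendritic-cell markers H2-Eb1 alone was called (all genes: 0.818%), with list means of 6.80 to 7.26 and 6.62 to 7.01. Whether other cells contribute to either gene was not tested.

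Small nucleolar RNAs, which guide the chemical modification and cutting of ribosomal RNA in the nucleolus, had the next largest share of genes separated upward. The list was matched by gene symbol, and the match also admits host genes named Snhg, which are longer transcripts. Of 54 tested, 9 rose and 0 fell (all genes: 0.59% and 0.228%), and 19 had all deficient above all control tumors (all genes: 3.8%). The median difference of the list was 0.49, with 0.52 against control tumors 1 and 2 and 0.39 after a second quantile normalization. Among the 50 genes typed as small nucleolar RNA in RefSeq, 8 rose and 0 fell, with a median of 0.49. List means were 9.28, 9.38, 9.18 and 9.09 in deficient tumors, 8.59 to 8.77 in control tumors and 8.21 to 8.49 in normal thymocytes.

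Snord118, the U8 RNA needed to mature the large ribosomal RNAs, had the largest rise of all called genes. It measured 9.01, 12.15, 9.85 and 9.90 in deficient tumors and 8.68, 8.02, 6.67, 5.57 and 5.98 in control tumors. Control tumors 1 and 2 were the controls nearest to the lowest deficient tumor. The rise of 3.25 (SE 0.67, limma adjusted p = 0.0477) was 1.88 against these 2 alone. Rnu3a, a U3 RNA of early ribosomal RNA cutting that was counted apart from the list, measured 9.47, 11.22, 10.79 and 10.34 against 8.34, 8.33, 8.16, 7.79 and 8.10, and rose by 2.31 (SE 0.296, limma adjusted p = 0.0144). Snora33 rose by 1.95 and Snora73a by 1.61 (limma adjusted p = 0.0144 for both), and these, with Rnu3a, were called in all 12 fits without 1 array.

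Snora73b, beside Snora73a on chromosome 4, rose by 1.43 (limma adjusted p = 0.0193), and Snord35b by 1.78 (limma adjusted p = 0.0414). The latter was 0.97 against control tumors 1 and 2, where the values were 9.92 and 9.48 against 10.33 to 11.22 in deficient tumors. Snora74a rose by 1.47 (limma adjusted p = 0.0303), Snora3 by 0.93 (limma adjusted p = 0.0194), Snord73b by 1.15 (limma adjusted p = 0.0477) and Snora2b by 0.78 (limma adjusted p = 0.0451). Against control tumors 1 and 2 Snora74a differed by 0.97 and Snord73b by 0.63. Outside the 3 genes named as called in all fits, the adjusted p without 1 array reached 0.146. Many of these RNAs lie in introns of other genes and have near-identical copies, and the array cannot tell such copies apart. Of genes of cytosolic ribosomal proteins 0 of 61 were called (all genes: 0.818%), with a median of -0.07. Of 77 mitochondrial ribosomal proteins 2 rose and 0 fell (all genes: 0.59% and 0.228%), and 10 were separated upward (all genes: 3.8%). The 2 were Mrpl19 (0.98) and Mrpl22 (0.94, limma adjusted p = 0.0477 for both). Against control tumors 1 and 2 the difference of Mrpl19 was 0.51, and the median of the mitochondrial list was 0.24, or 0.07 after a second quantile normalization. Snora3, Snord73b and Snora2b were picked after their values were seen.

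**Figure D5:**
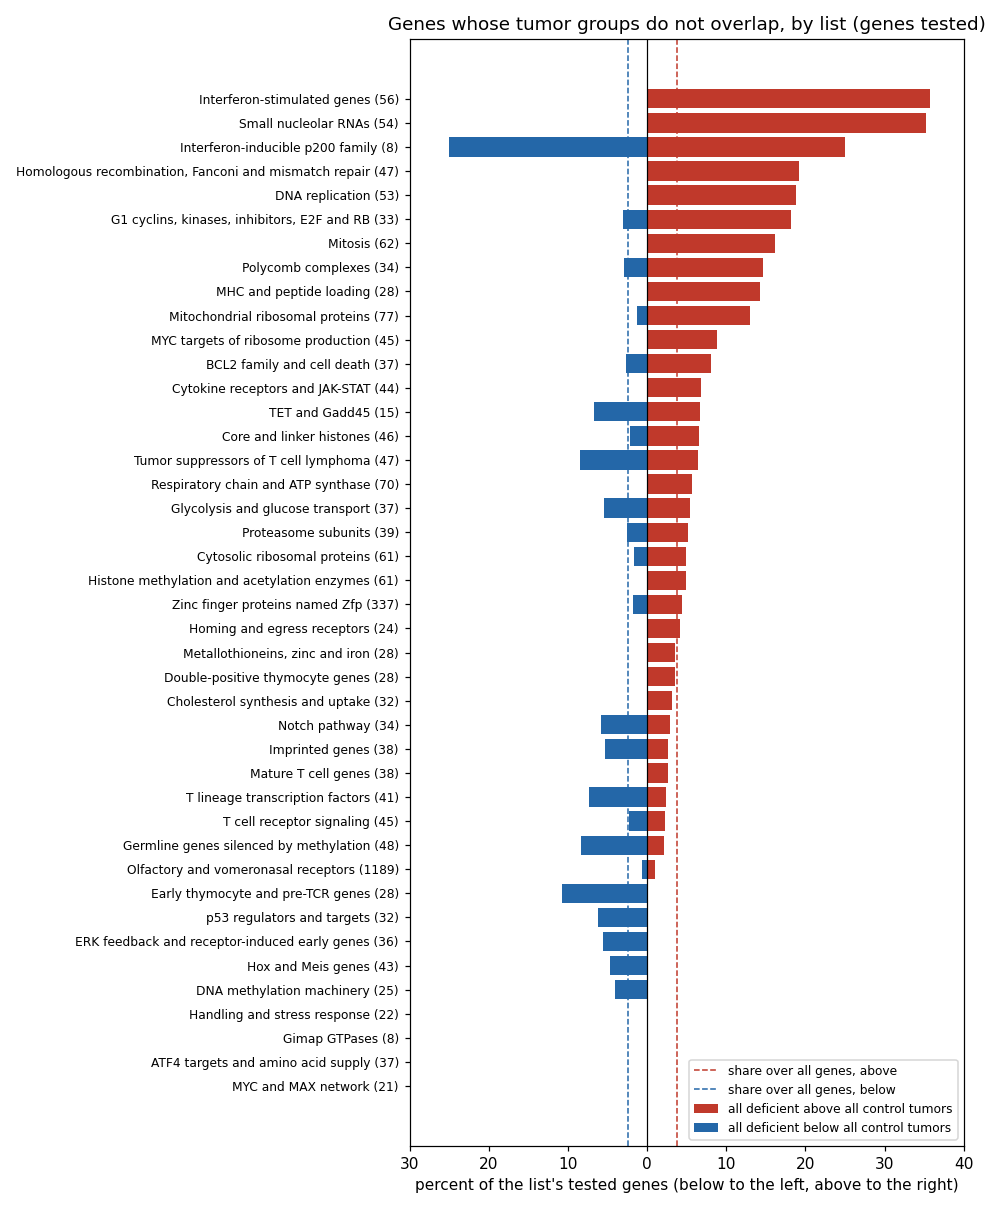
For each list of genes, bars give the percent of its tested genes whose deficient tumors all lay above (red, to the right) or below (blue, to the left) all control tumors, with the share over all genes dashed (3.8% above and 2.35% below). Interferon-stimulated genes (20 of 56) and small nucleolar RNAs (19 of 54) have the longest red bars, while the list of the p200 family holds only 8 genes.

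A run of 3 neighbouring genes on chromosome 10 rose together: Fstl3, a secreted inhibitor of activins, Prss57, a serine protease of neutrophil granules, and Palm, paralemmin of the plasma membrane. Fstl3 measured 8.39, 8.19, 9.23 and 8.65 in deficient tumors against 6.94, 7.66, 6.73, 6.77 and 6.81 in control tumors, without overlap. Its rise was 1.63 (SE 0.238, limma adjusted p = 0.0144). Prss57, at 6.83, 7.53, 8.94 and 7.88 against 5.34, 6.24, 5.50, 5.70 and 6.78, rose by 1.88 (limma adjusted p = 0.0414). Palm measured 7.76, 8.16, 9.16 and 8.75 against 7.16, 7.77, 7.15, 6.51 and 7.21, and rose by 1.29 (limma adjusted p = 0.0491), with deficient tumor 1 just below control tumor 2. All 3 were highest in deficient tumor 3. Without deficient tumor 4 none was called, at an adjusted p of 0.0513, 0.134 and 0.179. The neutrophil markers as a list were lower in deficient tumors at all 20 genes, with a median of -0.74 and of -0.12 against control tumors 1 and 2, opposite to Prss57.

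The promoters of Fstl3 and Palm are printed since both are rich in CpG pairs, the substrate of Dnmt3a. They are the 250 bases before each gene start, chr10:79777024-79777273 and chr10:79793322-79793571 on the plus strand of GRCm38.p6 (RefSeq), and capitals mark each CG.
Fstl3: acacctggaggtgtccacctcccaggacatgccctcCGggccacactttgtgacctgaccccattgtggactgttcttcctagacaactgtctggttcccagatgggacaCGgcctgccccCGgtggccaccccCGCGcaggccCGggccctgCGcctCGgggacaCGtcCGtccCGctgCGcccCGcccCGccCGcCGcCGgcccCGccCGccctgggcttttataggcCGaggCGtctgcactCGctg
Palm: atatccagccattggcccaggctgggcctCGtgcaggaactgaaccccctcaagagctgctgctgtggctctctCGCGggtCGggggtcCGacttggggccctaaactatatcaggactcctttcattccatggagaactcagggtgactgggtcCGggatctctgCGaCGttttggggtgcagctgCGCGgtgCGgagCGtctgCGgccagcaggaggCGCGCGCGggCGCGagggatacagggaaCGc
Fstl3 holds 22 CG pairs and Palm 20, which is 0.72 and 0.78 of the number expected from their content of C and G. For Prss57 no promoter sequence was available. Among all promoters of tested genes 49.7% reached a ratio of 0.6, against 61.4% of 83 promoters of genes called higher (Wilson 95% interval 50.7% to 71.2%, counting error only) and 54.8% of 31 of genes called lower. The median ratio was 0.72, 0.63 and 0.60 in genes called higher, genes called lower and all genes. Methylation was not measured on these arrays.

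Lists of Polycomb and cell cycle genes held few calls, all of them upward. Cbx7, a Polycomb protein that binds methylated histone H3, rose by 1.25 (SE 0.202, limma adjusted p = 0.0194), from 6.92 to 7.77 in control tumors to 8.81, 8.2, 8.85 and 8.87. Of 34 genes of the Polycomb complexes Cbx7 alone rose and 0 fell (all genes: 0.59% and 0.228%), and 5 were separated upward and 1 downward (all genes: 3.8% and 2.35%). Ccne2, a cyclin of the entry into S phase, rose by 1.21 (limma adjusted p = 0.0453) and Mybl2, a transcription factor of cycling cells, by 0.70 (limma adjusted p = 0.0294). They were the 2 called among 33 genes of the G1 and E2F list (all genes: 0.818%). Without deficient tumor 4 the adjusted p of Cbx7 and Mybl2 was 0.0793 and 0.114, and that of Ccne2 without deficient tumor 3 was 0.148. Against control tumors 1 and 2 the rise of Ccne2 was 0.73. In the G1 and E2F list 6 genes were separated upward and 1 downward (all genes: 3.8% and 2.35%).

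The lists of DNA replication, mitosis and repair held no called gene among 53, 62 and 47 tested members (all genes: 0.818%). Their median differences were 0.27, 0.42 and 0.33, and 0.28, 0.20 and 0.21 against control tumors 1 and 2. After a second quantile normalization they were 0.14, 0.29 and 0.16. Separated upward were 10, 10 and 9 of them (all genes: 3.8%), and downward 0. Tyms, which makes thymidylate, measured 9.85 to 10.28 against 8.02 to 9.55 (1.31, limma adjusted p = 0.0607), Fancd2, of the Fanconi repair pathway, differed by 0.65 (limma adjusted p = 0.0539), Pold1, a DNA polymerase subunit, by 0.61 (limma adjusted p = 0.0626) and Aurkb, a mitotic kinase, by 0.81 (limma adjusted p = 0.103). Against control tumors 1 and 2 the difference of Tyms was 0.58 and that of Aurkb 0.23. The mean level of mitosis genes was 9.32 to 9.54 in deficient tumors, 9.28 and 9.14 in control tumors 1 and 2, and 8.68 to 9.09 in control tumors 3, 4 and 5. The histone gene H4c3 rose by 1.31 (limma adjusted p = 0.0306), 1 of 2 called among 46 histone genes (all genes: 0.818%).

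The other large rises had no shared list. Padi4, which turns arginine of histones into citrulline, measured 9.40, 8.51, 8.71 and 7.41 in deficient tumors against 5.91, 6.01, 6.32, 6.92 and 6.32, without overlap, and rose by 2.21 (SE 0.324, limma adjusted p = 0.0144) in all 12 fits. Rnpep, an aminopeptidase, measured 8.51, 8.55, 9.17 and 9.23 against 7.21, 7.53, 5.73, 6.02 and 6.62, and rose by 2.24 (limma adjusted p = 0.0144), near the 8.09 to 8.74 of normal thymocytes. Ldhd, a lactate dehydrogenase of the D form, rose by 1.73 (limma adjusted p = 0.0144) in all 12 fits and by 1.41 (limma adjusted p = 0.0488) without control tumors 3 and 4. Rsl1, a zinc finger repressor, rose by 2.16 (limma adjusted p = 0.0193) and Pkn3, a protein kinase of the PKN family, by 1.84 (limma adjusted p = 0.0182). Without deficient tumor 4 Rnpep, Rsl1 and Pkn3 were not called, at an adjusted p of 0.0619, 0.0744 and 0.0744.

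The size of some rises depended on which controls were used. Gphn, gephyrin, a scaffold protein that also makes the molybdenum cofactor, measured 9.13, 8.88, 9.28 and 9.34 against 7.57, 8.29, 6.62, 5.71 and 6.85 and rose by 2.15 (limma adjusted p = 0.0294), with 1.22 against control tumors 1 and 2. Syce2, a protein of the synaptonemal complex of meiosis, rose by 1.78 (limma adjusted p = 0.0323) and by 1.08 against those 2. It was the 1 called gene of 48 on the list of germline genes silenced by methylation (all genes: 0.818%). Syce2 itself was not at the low level of that list, at 6.82 to 8.45 in control tumors and 7.14 to 7.53 in normal thymocytes. The list means were 4.84 to 4.97 in control tumors and 4.99 to 5.06 in normal thymocytes. In that list 1 gene was separated upward and 4 downward (all genes: 3.8% and 2.35%). Etv6, an ETS repressor, rose by 1.51 (limma adjusted p = 0.0372), with 7.36 in deficient tumor 2 below 7.40 in control tumor 2, and the rise was 0.94 against control tumors 1 and 2. Gadd45gip1, a mitochondrial protein, rose by 1.47 and Yae1d1 by 1.42 (limma adjusted p = 0.0477 and 0.0294), and by 0.69 and 1.03 against control tumors 1 and 2. Without deficient tumor 4 none of these 5 was called, at an adjusted p of 0.109 to 0.16.

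Celsr1, a cadherin of planar cell polarity, rose by 1.64 (limma adjusted p = 0.0477) and Itga6, a laminin receptor subunit, by 1.18 (limma adjusted p = 0.0477), which was 0.65 against control tumors 1 and 2. Cldn4, a claudin of tight junctions, measured 8.52, 7.97, 8.52 and 8.48 against 6.35 to 7.52 and rose by 1.38 (limma adjusted p = 0.0193), toward the 8.37 to 8.91 of normal thymocytes. It was the 1 called gene of 22 markers of thymic epithelium (all genes: 0.818%), whose median was 0.04. Il10rb, a receptor chain for interleukin 10 and related cytokines, rose by 0.84 (limma adjusted p = 0.0477), the 1 called among 44 cytokine receptor and JAK-STAT genes (all genes: 0.818%). Als2cl and Zbtb8a rose by 1.63 and 1.55 (limma adjusted p = 0.0451 and 0.0194). Without deficient tumor 3 or 4 none of these 6 was called, at an adjusted p of up to 0.172.

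Most other lists held few or no called genes. No gene was called (all genes: 0.818%) among 28 double-positive thymocyte genes, 32 p53 regulators and targets, 37 ATF4 targets, 70 respiratory chain genes, 39 proteasome subunits, 43 Hox and Meis genes or 1189 olfactory and vomeronasal receptors. The median of the double-positive thymocyte genes was -0.09, but -0.67 against control tumors 1 and 2. Among the 43 Hox and Meis genes the difference was positive at 6, with a median of -0.19 and of -0.08 against control tumors 1 and 2. The 8 Gimap genes, GTPases of lymphocyte survival, were lower at every member with a median of -1.05 and none called; the list means were 6.57, 7.78, 6.34 and 6.86 in deficient tumors, 7.28 in control tumor 1, 6.90 in control tumor 2 and at least 8.25 in the remaining controls. Against control tumors 1 and 2 the median was -0.24. Mature T-cell genes, a list that itself includes Gimap genes, had a median of -0.40, which was 0.08 against control tumors 1 and 2. Of its 38 tested genes 1 was called, Cd27 (all genes: 0.818%). No list of markers of neutrophils, macrophages, NK cells, erythroid cells, fibroblasts and endothelium, adipocytes, platelets or mast cells had a called gene (all genes: 0.818%).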

How the data were processed

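RNA of 12 mouse samples (4 Dnmt3a-deficient tumors, 5 control tumors, 3 normal thymocyte samples) was amplified, labelled with biotin and hybridised to 1-colour expression arrays, per the labels' protocols. The log2 expression values used were deposited by the authors. Per the submitters' processing notes, Affymetrix Expression Console and its RMA method produced them, with no versions named. RMA corrects background and normalizes quantiles between arrays. The array quartiles nonetheless differed, so other scalings were run.

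Of 23858 probe sets, 1453 with several gene symbols and 1535 with none were left out. For 849 genes with more than 1 set, the set with the highest mean was kept. RefSeq (GRCm38.p6) matched 19267 of 19309 genes. No further normalization or filter was applied.

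Testing used limma 3.58.1 (R 4.3.3): 3 group means fitted to all 12 arrays (9 residual and 4.17 prior degrees of freedom), deficient minus control, two-sided, with Benjamini-Hochberg adjustment over all genes, and called at an adjusted p under 0.05. All adjusted p-values of genes come from limma. The fit was tested on simulated data. Single values used an exact permutation test over all 126 splits of the tumor arrays. Alternatives were other scalings, a dim-gene filter, array weights, eBayes with trend and robust, tumor arrays alone, a replicate block, and fits without 1, 2 or 3 arrays.

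The groups, lists (42 gene lists and 12 marker lists) and printed members were chosen with earlier results of these data known. Histone genes were matched by their current symbols. The rule for named genes takes the methylation list, the 20 largest changes in each direction among called and separated genes (leaving out unnamed models, receptor segments and small RNAs), up to 6 called members of each list (or up to 2 with the smallest p where none was called), Myc, Mycn, Cd3e, Cd4, Cd8a, and runs of 3 or more called neighbours; the text prints part of these. A result on 1 called gene is not reported here. Promoter letters were counted in RefSeq promoters of 250 bases.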

Additional observations from a re-analysis of the deposited data

Results flagged for a closer look

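Among 178 groups of printed genes, 12 had a sample that stood apart from the rest of its group, and chance gives about 1 in 20. In the control tumors these were Dnmt3a in control tumor 5 (9.57, next 8.58), Gadd45g in control tumor 5 (5.65, next 8.78), Dnmt1 in control tumor 4 (10.7, next 10.86), Elk3 in control tumor 4 (9.32, next 8.44), Rsl1 in control tumor 4 (4.59, next 5.81) and Fstl3 in control tumor 2 (7.66, next 6.94). In the deficient tumors Cd8a (8.23, next 10.98), Rsad2 (6.31, next 6.84), Cbx7 (8.2, next 8.81) and Cldn4 (7.97, next 8.48) were lowest in deficient tumor 2, Cflar in deficient tumor 3 (6.19, next 6.8) and Nop16 in deficient tumor 1 (10.87, next 11.1). Every value is a log2 expression value.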

How the results depend on the processing

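The count of called genes, 158 (114 higher, 44 lower), became 306 (258, 48) with each array centred on its median, 102 (57, 45) after a second quantile normalization, 142 (86, 56) with cyclic loess, 1 (Dusp6) with the tumor arrays alone and 3328 with array weights; the cause was not tested. Fits without 1 array called 16 to 1482 genes. Without control tumors 3 and 4 the count was 6, and without control tumors 3, 4 and 5 it was 82 (27 of them among the 158). The deviations of same-numbered tumors from their group means correlated at 0.338, -0.134, -0.038 and -0.126. These values have no reference to be judged against, so they cannot decide whether the numbers pair the samples. With a replicate block 104 genes were called, 60 of them among the 158. Dnmt3a stayed negative in all settings, but lost its call with tumor arrays alone (-1.25), in 7 of the 12 fits without 1 array (range over all 12 -1.37 to -1.02) and without control tumors 3 and 4 (-1.47). Of the 71 other called genes printed, 0 of 1692 values under alternatives reversed. Reversed signs were -0.03 for Dnmt1 (common median and interquartile range), -0.09 for Cd3e and -0.60 for Cd8a (without control tumors 3, 4 and 5), -0.25 for Cd8a (replicate block; without 1 array -0.25 to 1.12), and 0.12 and 0.29 for Myc (without control tumors 3 and 4, and 3, 4 and 5). With a CpG ratio of 0.75 the share of promoters was 47.0% for genes called higher, 35.5% for genes called lower and 33.5% for all genes. Array number, and signal near the background of dim genes, limit the precision.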
